A study of Mus musculus with 12 samples.

Results

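The genes described here encode the proteins of the cytosolic ribosome. They were taken by name: every gene whose symbol starts with Rpl (large subunit) or Rps (small subunit) and that is listed in all 4 deposited tables. The S6 kinases, Rps19bp1 and pseudogenes with '-ps' in the name were left out. That rule gave 88 genes of 15318, of which 52 carry an Rpl and 36 an Rps name. Of these, 77 are the standard ribosomal protein genes (46 large, 31 small) and 11 are paralogs or retrogenes (Rpl3l, Rpl22l1, Rpl36al, Rpl7l1, Rps27l, Rps4l, Rpl6l, Rpl37rt, Rps27rt, Rps3a2 and Rps3a3). Rpl6l, Rps3a2, Rps3a3, Rps4l and Rpl37rt carry no '-ps' but are annotated as pseudogenes in GENCODE, and they were kept. All 88 passed the filter on low values in every comparison.

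Polyadenylated RNA from whole hearts of male C57Bl/6J mice, 12 weeks old, was sequenced in 4 groups of 3 libraries. Control sham and control TAC hearts came from mice fed leucine, isoleucine and valine (the branched-chain amino acids, BCAA) at chow-like amounts, and BCAA-free sham and BCAA-free TAC hearts from mice whose diet held none of the 3. All 4 groups received 1% propionate in the diet, so no group shows the effect of BCAA removal without propionate. The diets began 4 days before surgery, and hearts were taken 1 week after a sham operation or after TAC (transverse aortic constriction), in which a ligature narrows the aortic arch and raises the pressure against which the heart pumps. Whether each library is a different mouse is not in the labels, and the p-values measure only how far these libraries spread, which may be technical.

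A ribosome needs its proteins in fixed proportion with ribosomal RNA, and their mRNAs are among the most abundant of most cells. Most of these mRNAs start with a run of pyrimidines (C or T in the gene), the 5′ terminal oligopyrimidine or TOP tract, through which their translation is regulated by mTORC1, a kinase complex that is activated by amino acids, leucine among them. Pressure overload makes heart muscle cells grow, which takes more protein synthesis.

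The sequence at annotated gene starts was taken from RefSeq (build GRCm38.p6) to see how often a run of C and T is found there. Windows of 40 bases, 25 before the annotated start and 15 from it on, are printed on the coding strand with the longest run of C and T in capitals. They are shown so that genes whose transcripts differed between diets can be read beside genes whose transcripts were not called, and the run varied in length and place. The marked run covers the annotated start in Rps27, Rpl38, Rps6, Rpl7a and Rpl15 and begins next to it in Rpl18. In Rpl39 and Rps28 the marked run lies upstream, with at least 12 bases between it and the start. Only the longest run is marked, and in these 2 windows an unmarked, shorter stretch of C and T covers the annotated start. The first 4 genes were higher on the BCAA-free diet in TAC hearts and the last 4 were not called there.
Rps27: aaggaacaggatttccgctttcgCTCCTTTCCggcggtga
Rpl38: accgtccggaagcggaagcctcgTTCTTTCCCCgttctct
Rpl39: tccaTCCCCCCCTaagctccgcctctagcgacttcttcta
Rps28: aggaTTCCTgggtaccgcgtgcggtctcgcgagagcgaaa
Rps6: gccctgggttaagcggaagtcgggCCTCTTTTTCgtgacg
Rpl7a: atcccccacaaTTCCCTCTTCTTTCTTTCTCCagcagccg
Rpl15: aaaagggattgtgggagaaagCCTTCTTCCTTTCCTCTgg
Rpl18: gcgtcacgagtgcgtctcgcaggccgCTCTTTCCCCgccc
The windows lie at Rps27 chr3:90213634-90213673 (minus strand), Rpl38 chr11:114668555-114668594 (plus strand), Rpl39 chrX:37085208-37085247 (minus strand), Rps28 chr17:33824548-33824587 (minus strand), and at Rps6 chr4:86857353-86857392 (minus strand), Rpl7a chr2:26910782-26910821 (plus strand), Rpl15 chr14:18270972-18271011 (minus strand), Rpl18 chr7:45718046-45718085 (plus strand).

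RefSeq start windows were found for 64 of the 88 genes. A C/T run of at least 8 bases on the coding strand was present at 29 of these 64 (45.3%), against 18.9% of the 27025 genes with an entry. The longest run was of that length and covered the annotated start itself at 16 of the 64 (25%), against 4.23% of all genes. Among the members that rose with the BCAA-free diet in TAC hearts, 10 of 24 (41.7%) held such a run, and among those not called 19 of 40 (47.5%). The 24 are all standard genes, while the 40 include the 7 paralogs and retrogenes with a window, of which 2 held such a run. CCGGAAG, a sequence bound by ETS-family factors, was sought on either strand in the 300 bases from 250 before to 50 after the start. This sequence was found in 25 of 64 members (39.1%) and in 9.93% of all 27025 genes. Of the 24 that rose 11 held it (45.8%), and of the 40 not called 14 (35%). Of the 7 paralogs and retrogenes 1 held it. A match describes letters near an annotated start and not a measured site, and the annotated start can differ from the start used in the heart.

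Libraries held 29927472 to 46097445 reads assigned to the listed genes. Levels are given as reads put on a common scale across the 12 libraries ("scaled reads"), and differences as log2 values with their SE from limma within the deposited table of that comparison. Some libraries stood apart before any comparison. Control TAC library 2 had 4464 scaled reads of 3 RNA polymerase III transcripts against 54.8 to 983 elsewhere. Control TAC library 3 had 1120 of 2 liver transcripts against 146 to 258, and BCAA-free TAC library 2 had 2135 of 3 fat cell transcripts against at most 794 elsewhere. Differences that rest on control TAC hearts were therefore also computed without control TAC libraries 2 and 3. The cardiomyocyte list had all 9 of its genes in all 4 tables, none at 0 in any library.

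Ribosomal protein genes took between 1.79% and 2.26% of the assigned reads. The share was 1.87% ± 0.0756 (SD, n = 3) in control sham, 1.93% ± 0.106 in control TAC, 1.97% ± 0.0940 in BCAA-free sham and 2.20% ± 0.0844 in BCAA-free TAC hearts. Assigned reads include mitochondrial transcripts, at 19.3% to 20.4% in control sham and 16.5% to 17.8% in control TAC libraries. They took 18.3% to 19.8% in BCAA-free sham and 16.4% to 17.8% in BCAA-free TAC libraries. On the common scale, control TAC was not above control sham. The members' mean sums there were 697471 in control sham, 686773 in control TAC, 733066 in BCAA-free sham and 820760 in BCAA-free TAC hearts. The 3 BCAA-free TAC libraries, at 2.10%, 2.23% and 2.26%, all lay above the other 9, of which the highest was 2.06%. In bulk tissue, a difference in the number of cells of a type and a difference in RNA per cell cannot be told apart. Per kilobase of transcript, the highest mean levels over the 12 libraries belonged to Rplp1 (33367 scaled reads per kilobase), a protein of the stalk that recruits elongation factors, and Rps2 (28723), a small subunit protein at the mRNA entry site. The lowest belonged to the retrogene Rpl6l (16.4).

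**Figure D1:**
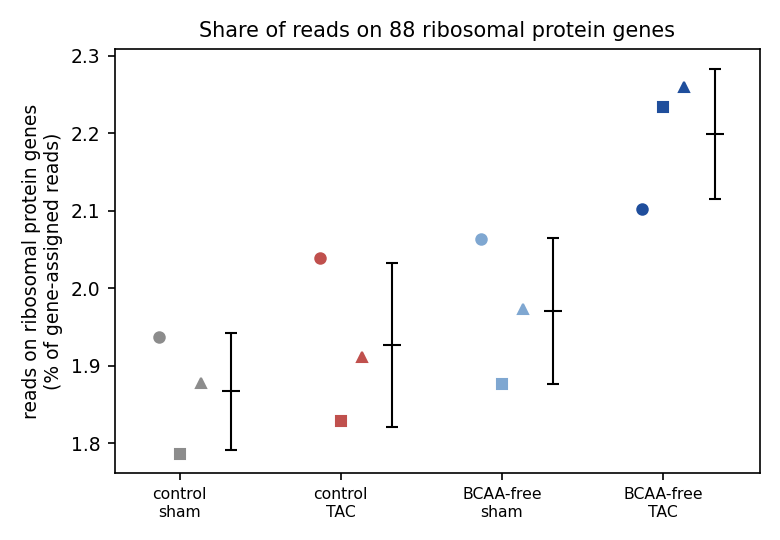
Reads on the 88 ribosomal protein genes as a percent of all gene-assigned reads (y axis) in each of the 12 libraries, by group (x axis). Circles, squares and triangles are libraries 1, 2 and 3, and the black mark is the mean with its SD. The 3 BCAA-free TAC libraries lie between 2.10% and 2.26%, above all others. The assigned reads include mitochondrial transcripts, whose share was lower in TAC than in sham libraries.

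The comparison of the diets in TAC hearts asks what removal of BCAA changed under pressure overload, and here the ribosomal protein genes differed most. Of the 88, 33 were higher on the BCAA-free diet and 0 were lower, while 1.27% of all 16222 genes tested rose and 2.11% fell; the 33 are 37.5% of the members. The median log2 difference of the 88 was 0.28, against 0.00425 over all genes, and 77 of the 88 were above 0. Groups did not overlap for 64 members with all 3 BCAA-free libraries higher (12.6% of all genes) and for 2 with all 3 lower (13% of all genes). The rise was shared by the subunits, with 19 of 46 large subunit genes (median 0.29) and 14 of 31 small subunit genes (median 0.30). Of the 11 paralogs and retrogenes 0 were called (median -0.01, 2 at an unadjusted p under 0.05). Among these 11, Rpl6l, Rps3a3, Rps27rt, Rps3a2 and Rpl37rt had means over all libraries of only 14.3 to 48.1 scaled reads. The SE of Rps27rt was 0.43, so for such low genes the lack of a call is uninformative.

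Small subunit genes led by size. Rps27, a zinc-binding protein of the small subunit (chr3:90212522-90213651, GRCm38), had 3993, 4874 and 4810 scaled reads in control TAC and 6739, 9273 and 7875 in BCAA-free TAC libraries. The groups do not overlap, and Rps27 was 1.75-fold higher (log2 0.80 ± 0.13, limma adjusted p = 0.0117). Rps29, which also binds zinc (chr12:69157722-69159186), had 4876, 5494 and 5618 reads on the control diet and 7640, 9888 and 9011 without BCAA. Every BCAA-free library was again above every control library, by 0.73 ± 0.11 on the log2 scale (adjusted p = 0.00819). Rps21 had 3854, 4389 and 4497 against 6220, 7633 and 7105 scaled reads, without overlap (0.72 ± 0.10, adjusted p = 0.00625). Rps28, which lies near the mRNA exit site of the small subunit, had 4062, 3929 and 3976 against 5694, 6681 and 6607. Its control libraries were close to each other and its difference was 0.67 ± 0.08 (adjusted p = 0.00464). Rps20 (0.63 ± 0.08), Rps26, which contacts the mRNA upstream of the decoded codon (0.51 ± 0.06) and Rps12 (0.51 ± 0.07) rose as well, with adjusted p between 0.00473 and 0.00684.

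Among large subunit genes, Rpl39, which lines the tunnel through which the new protein leaves (chrX:37082520-37085402), had the smallest p of all members. It had 3004, 2977 and 3095 scaled reads in control TAC and 4471, 4963 and 4549 in BCAA-free TAC libraries, with a wide gap between the groups (0.63 ± 0.07, adjusted p = 0.00387). Rpl38, whose loss alters the skeleton of mice, had 2750, 2721 and 3029 against 4125, 5011 and 4341 (0.67 ± 0.09, adjusted p = 0.00621). Rpl37, with 3720, 3738 and 3981 against 5465, 6483 and 5716, did not overlap either (0.63 ± 0.08, adjusted p = 0.00545). Rpl37a (0.59 ± 0.08), Rpl24, at the interface of the subunits (0.56 ± 0.07), and Rpl36a (0.52 ± 0.07) rose with adjusted p between 0.00572 and 0.00735. Of the stalk proteins, Rplp1 (0.47 ± 0.08, adjusted p = 0.0143) and Rplp2 (0.40 ± 0.08, adjusted p = 0.0280) rose, and Rplp0, the base of the stalk, was at 0.30 ± 0.07 (adjusted p = 0.0594).

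Several well-known members were not called. Rps6, the S6 kinase target, had 8043, 7707 and 8060 scaled reads in control TAC and 8494, 8993 and 8861 in BCAA-free TAC libraries. These do not overlap, but the difference of 0.15 ± 0.06 did not pass (adjusted p = 0.224). Values were 0.16 ± 0.08 for Rpl5 and 0.10 ± 0.06 for Rpl11, which bind 5S ribosomal RNA, and 0.19 ± 0.07 for Rps19, the gene most often mutated in Diamond-Blackfan anaemia. Rps27a, made as a fusion with ubiquitin, was at 0.29 ± 0.07 and Rpl10, which joins the large subunit late, at 0.22 ± 0.08. The lowest values among genes with a mean of at least 50 reads were those of Rpl7l1 (-0.17 ± 0.07), Rpl27 (-0.04 ± 0.09) and Rps2 (-0.04 ± 0.08). The smallest adjusted p of these 8 genes was that of Rps27a, 0.0704.

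**Figure D2:**
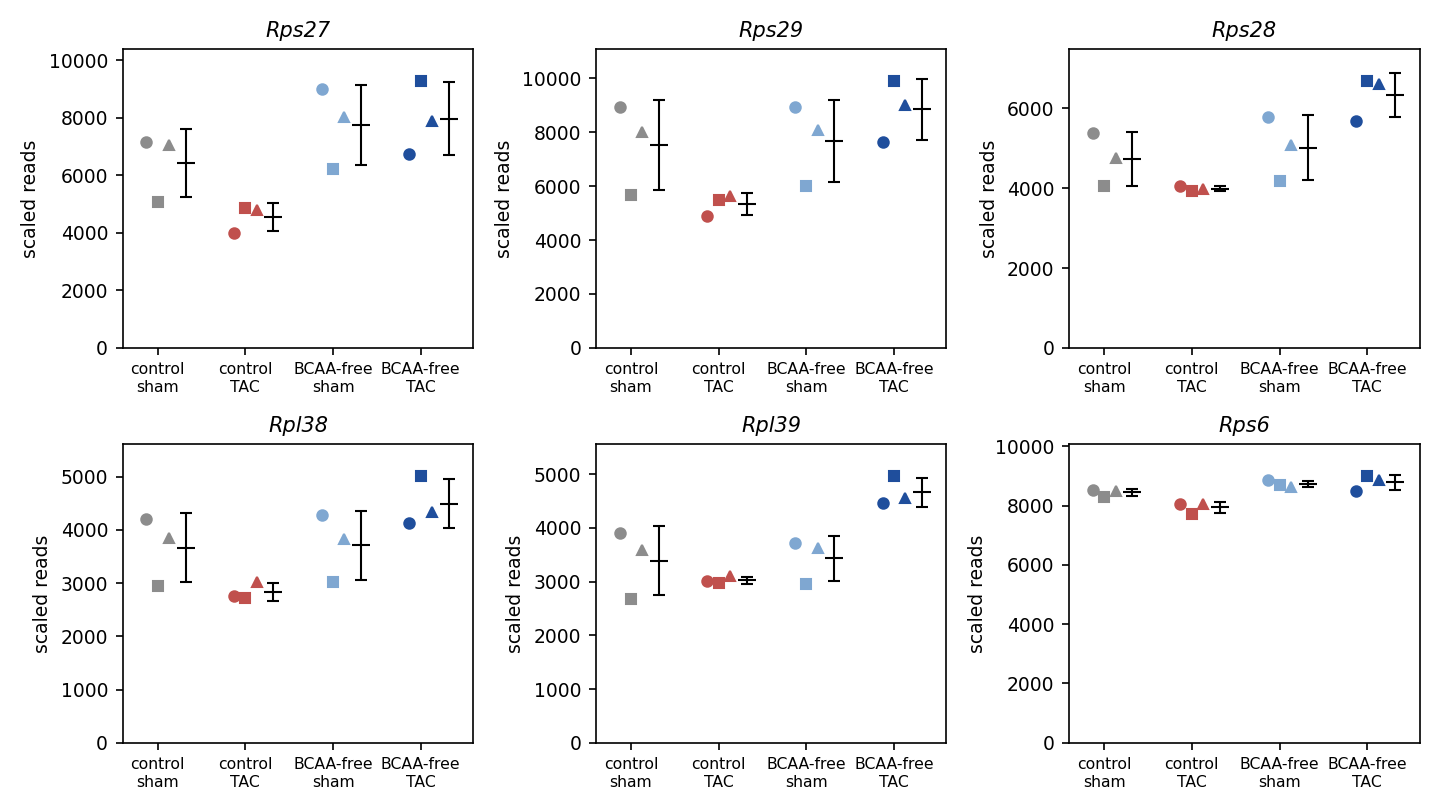
Scaled reads (y axes, from 0) of Rps27, Rps29, Rps28, Rpl38, Rpl39 and Rps6 in each library, by group (x axes). Circles, squares and triangles are libraries 1, 2 and 3, and black marks are means with SD. In the first 5 genes the BCAA-free TAC libraries lie above all control TAC libraries by a wide margin, and in Rps6 by a narrow margin.

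The count of 33 depended on single libraries. It was 12 without control TAC library 2, 19 without control TAC library 3, 15 without BCAA-free TAC library 2 and 19 without BCAA-free TAC library 3. Without both control TAC libraries 2 and 3 a lone control library remained, whose spread could not be measured, so no count is given. In that fit 76 of the 88 members were above 0. Rpl24, Rpl36a, Rpl37, Rpl37a, Rpl38, Rpl39, Rps20, Rps21, Rps26, Rps27, Rps28 and Rps29 are the 12 that passed when any single library was left out. DESeq2 called 46 members and edgeR 32, all higher. The authors' deposited table lists 46 higher members with an adjusted p under 0.05, where 3.45% of all listed genes rose and 3.87% fell. For the DESeq2 and edgeR counts and those without a single library, the share over all genes is not given here.

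Markers of 3 cell classes also lay apart between the TAC groups of the 2 diets. The 5 dividing-cell genes listed in all tables (of 6; Ccnb1 is not listed in all) summed to 1964 to 2207 scaled reads in control TAC and 142 to 405 in BCAA-free TAC libraries, and 6 of 6 fell in that diet comparison. The 9 cardiomyocyte markers summed to 2905980 to 3218590 scaled reads in control TAC and 3340760 to 3732680 in BCAA-free TAC libraries, without overlap, and 0 of 9 passed. The 6 endothelial markers summed to 28340 to 33387 and 26370 to 27317, also without overlap, and 1 of 6 fell. None of the markers summed was at 0 in any library. Of the fibroblast markers 1 of 8 was higher on the BCAA-free diet, and of the macrophage markers 0 of 8 passed. The part of these cells in the ribosomal protein differences was not tested.

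Members with shorter transcripts had larger differences on the whole, with exceptions. Transcript length in GENCODE and the log2 difference had a Spearman rho of -0.48 over the 83 members annotated as protein-coding, a description across genes that share the same libraries. Among members of at most 700 bases, 22 of 42 rose (median 0.36), and among longer ones 11 of 41 (median 0.18). Other protein-coding genes showed the same order, with 44 of 370 that rose at up to 700 bases (11.9%, median 0.22) and 107 of 13533 above it (0.791%, median -0.00615). Of the genes named above, Rps20 (3706 bases in the annotation) and Rpl37 (835 bases) lay among the higher values with transcripts over 700 bases. At that length Rps20 had 1541 scaled reads per kilobase, rank 81 of the members and the lowest of the standard genes. Whether its transcripts in the heart have that length was not tested, and the length correction of Rps20 rests on it. After each library's dependence on transcript length was removed, 20 members rose (0.766% of all genes did) with a median of 0.14, a choice made after seeing the data. All 20 were among the 33, and the 12 genes that passed without any single library were among them. The part of transcript length in the rest of the difference was not tested.

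**Figure D3:**
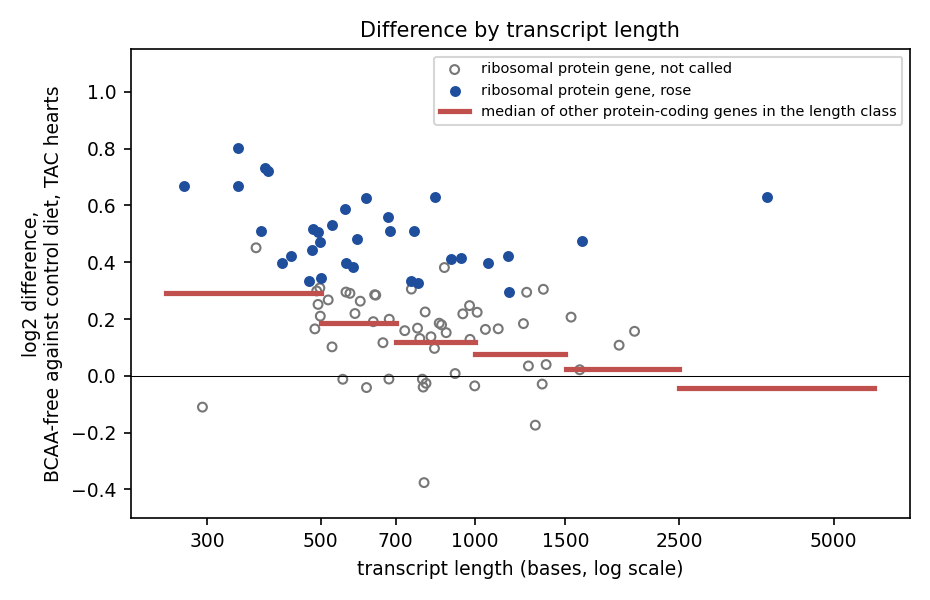
Log2 difference between BCAA-free TAC and control TAC hearts (y axis) against transcript length in bases (x axis, log scale) for the 88 ribosomal protein genes. Filled points rose and open points were not called; red lines are medians of other protein-coding genes in each length class. The lines fall from 0.29 at up to 500 bases to -0.04 above 2500 bases, and most members lie above the line of their class.

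In sham hearts the diet called 0 of the 88 members with limma (8 at an unadjusted p under 0.05; 18.3% of all genes were under it), where 1.05% of 15596 genes rose and 1.76% fell. DESeq2 called 1 and edgeR 0. The authors' deposited values list 1 member higher and 0 lower with an adjusted p under 0.05, where 1.94% of all listed genes rose and 3.27% fell. The median was 0.07 against 0.00209 over all genes, and 73 members were above 0. Groups did not overlap for 11 members that lay higher (11.5% of all genes) and 1 that lay lower (11.8% of all genes). Among the higher values were those of Rps27 (0.27 ± 0.14) and Rps21 (0.20 ± 0.12), and Rps4l, a paralog of Rps4x, was lowest at -0.37 ± 0.12 (adjusted p = 0.114). For Rps27 the sham libraries overlapped, with 7152, 5070 and 7070 scaled reads on the control diet and 8988, 6232 and 8023 without BCAA. In both diets sham library 2 was the lowest.

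That pattern held across the family. The median deviation of the members from their own means was -0.17 in control sham library 2 and -0.11 in BCAA-free sham library 2, against -0.02 to 0.06 in the other 4 sham libraries. The 349 other protein-coding genes of at most 700 bases had -0.10 and -0.09 in the same libraries.

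On the control diet, TAC raised 1 member, Rpl18, and lowered 0, against 3.4% and 1.94% of the 15873 genes tested. Rpl18 (chr7:45715457-45720836), had 7978, 8237 and 8186 scaled reads in sham and 10284, 9632 and 9453 in TAC libraries. The groups do not overlap (0.27 ± 0.06, adjusted p = 0.0350), but Rpl18 did not pass when any of the 6 libraries was left out. The median of the 88 was -0.09, with 34 above 0 and 54 below. All 3 TAC libraries were above all sham libraries for 14 members (14.5% of all genes) and below them for 15 (13.6% of all genes). The members spread in both directions: Rpl3 (0.48 ± 0.12, adjusted p = 0.0574) and Rpsa, also known as the laminin receptor (0.30 ± 0.08, adjusted p = 0.0575), were highest, and Rps27 (-0.48 ± 0.13, adjusted p = 0.0681), Rps29 (-0.47 ± 0.15, adjusted p = 0.0918) and Rps21 (-0.39 ± 0.10, adjusted p = 0.0609) were lowest. Rps27, Rps29 and Rps21 were also the highest in the diet comparison of TAC hearts. Both comparisons use the same control TAC libraries, so their results are not independent. Without control sham library 2, 0 members rose and 14 fell, Rps27, Rps29, Rps21, Rpl37 and Rpl38 among them. Without control sham library 1 or 3, or control TAC library 2 or 3, 0 members passed. DESeq2 called 4 higher and 7 lower. The authors' deposited values list 4 members higher and 8 lower with an adjusted p under 0.05. In them 5.69% of all listed genes rose and 4.03% fell. For the DESeq2 counts and those without a single library, the share over all genes is not given here.

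On the BCAA-free diet, TAC raised 4 members and lowered 0, which is 4.55% of the 88, while 2.94% of 15936 genes rose and 1.37% fell. They were Rpl39 (0.45 ± 0.09, adjusted p = 0.0236), Rpl3 (0.33 ± 0.07, adjusted p = 0.0249), Rpl41, the smallest ribosomal protein (0.47 ± 0.10, adjusted p = 0.0295), and Rps12 (0.30 ± 0.07, adjusted p = 0.0470). Rpl41 had 8870, 6452 and 7725 scaled reads in sham and 10071, 10746 and 10916 in TAC libraries, without overlap. The median of the 88 was 0.16, with 82 members above 0, and 40 had all 3 TAC libraries above all 3 sham libraries (14% of all genes) and 3 had them below (12.7% of all genes). Leaving out 1 library moved the count to 0 (BCAA-free sham 2, BCAA-free sham 3), 1 (BCAA-free sham 1, BCAA-free TAC 2) or 12 (BCAA-free TAC 1). DESeq2 called 16.

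The TAC responses of the 2 diets share no library, and their difference was tested in a fit over all 12. It called 0 of the 88 with limma (41 at an unadjusted p under 0.05; 10.1% of all 15524 genes were under it), where 0.00644% of all genes passed with a positive and 0.0386% with a negative difference. DESeq2 called 1, Rpl37, and edgeR 0. The median difference was 0.21, against -0.000769 over all genes, and 79 members were above 0. The highest were Rps29 (0.69 ± 0.23, adjusted p = 0.302), Rpl38 (0.64 ± 0.19, adjusted p = 0.278) and Rpl37 (0.61 ± 0.16, adjusted p = 0.216), and the lowest with a mean of at least 50 were Rpl7l1 (-0.27 ± 0.09), Rpl3 (-0.14 ± 0.15) and Rpl18 (-0.10 ± 0.09). With the length correction the median was 0.089.

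Averaged over both diets, TAC raised 14 members (15.9%) and lowered 1, against 9.67% and 7.29% of 15524 genes. Large subunit genes made up 12 of the 14. Rpl3, Rpsa, Rpl18, Rpl28, Rpl31 and Rpl41 passed under every alternative, with log2 differences of 0.20 to 0.40. Rpsa (chr9:120127689-120132369) had 17322, 15870 and 17052 scaled reads in control sham, 22593, 19208 and 20039 in control TAC, 18471, 17014 and 17795 in BCAA-free sham and 20208, 20094 and 22109 in BCAA-free TAC libraries. All 6 TAC libraries lay above all 6 sham libraries (0.26 ± 0.05, adjusted p = 0.00420). Rpl18 also separated, at 9078 to 10284 in TAC and 7978 to 9056 in sham libraries (0.21 ± 0.04, adjusted p = 0.00489). Rpl35, Rplp0, Rpl6, Rpl13a and Rpl11 rose by 0.14 to 0.17. The count of 15 was 9 without control TAC library 1 and 8 without BCAA-free sham library 2. The share over all genes in those fits is not given here.

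**Figure D4:**
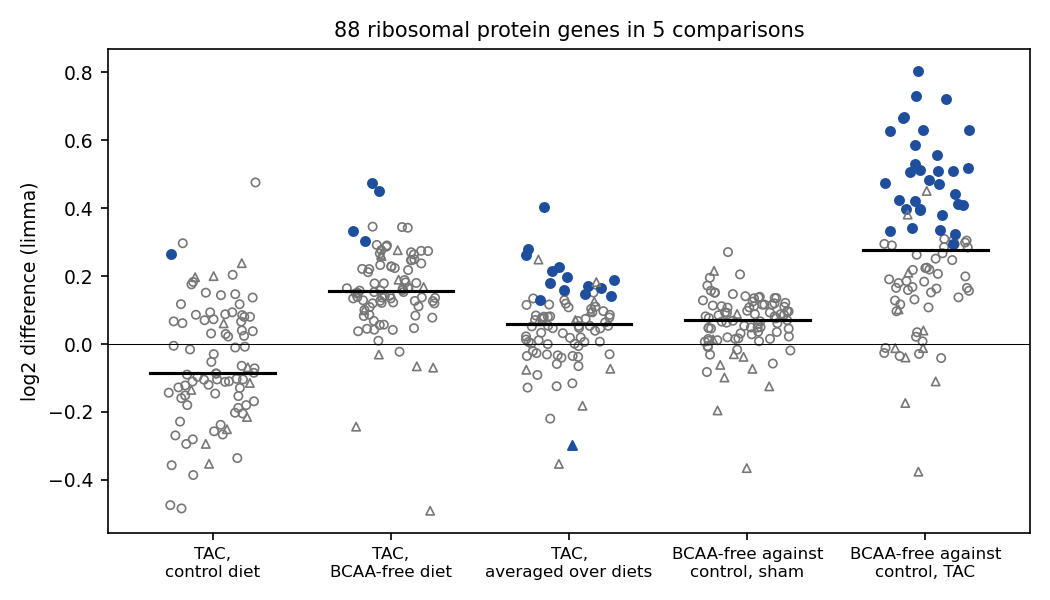
Log2 differences (y axis) of the 88 ribosomal protein genes in 5 comparisons (x axis). Circles are standard genes and triangles paralogs or retrogenes; filled blue symbols passed an adjusted p of 0.05 with limma and black lines are medians. The medians are -0.09, 0.16, 0.06, 0.07 and 0.28 from left to right.

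Rpl3 and its paralog Rpl3l moved in opposite directions with TAC. RPL3 lies near the site where the ribosome joins amino acids, and RPL3L takes its place in striated muscle. Rpl3 (chr15:80077791-80091868) had 6896, 7246 and 6508 scaled reads in control sham and 12030, 8437 and 8628 in control TAC libraries. On the BCAA-free diet it had 7378, 7634 and 7241 in sham and 10083, 8961 and 9010 in TAC libraries. All TAC libraries lay above all sham libraries, and over both diets Rpl3 was 1.32-fold higher (0.40 ± 0.08, adjusted p = 0.00338). Rpl3l (chr17:24727820-24736143) had 12105, 11172 and 12596 in control sham and 7415, 10354 and 10657 in control TAC libraries. Without BCAA it had 11835, 11026 and 11189 in sham and 7812, 10248 and 10962 in TAC libraries. All TAC libraries lay below all sham libraries, and Rpl3l fell by 0.30 ± 0.09 on the log2 scale over both diets (adjusted p = 0.0427). The Rpl3l call was lost with edgeR and in 7 of 12 fits without a library (adjusted p of 0.00560 to 0.0919 over all alternatives).

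Per length, Rpl3l transcripts outnumbered Rpl3 transcripts in every sham library, with a ratio of 1.71 ± 0.194 (SD, n = 3) in control sham hearts and 1.42 to 1.58 in the BCAA-free sham libraries. The ratio was 1.01 ± 0.349 in control TAC and 1.03 ± 0.233 in BCAA-free TAC hearts, with the lowest values in library 1 of each TAC group (0.606 and 0.761). The diets did not separate in TAC hearts for Rpl3 (-0.03 ± 0.13, adjusted p = 0.929) or Rpl3l (0.04 ± 0.16, adjusted p = 0.925). The same 2 libraries had the highest sums of the 8 fibroblast markers, 95604 and 87790 scaled reads against 43581 to 53095 in the other 4 TAC libraries and 26009 to 37516 in sham libraries. They also had the highest sums of the 8 macrophage markers, 12489 and 11738 against 8565 to 9960 and 5379 to 8254. None of these markers was at 0 in any library, and their part in the Rpl3 and Rpl3l values was not tested. Without control TAC library 1, the difference over both diets was 0.32 for Rpl3 (adjusted p = 0.00124) and -0.21 for Rpl3l (adjusted p = 0.0825).

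**Figure D5:**
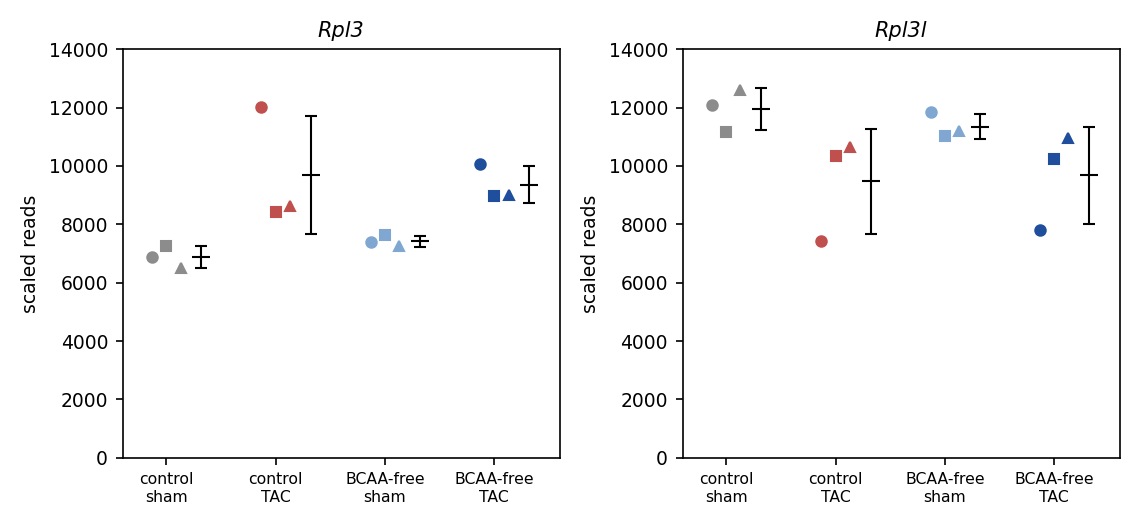
Scaled reads (y axes, from 0) of Rpl3 and Rpl3l in each library, by group (x axes). Circles, squares and triangles are libraries 1, 2 and 3, and black marks are means with SD. Rpl3 lies higher and Rpl3l lower in all 6 TAC libraries than in all 6 sham libraries, and library 1 is the most extreme in both TAC groups.

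The other pairs of a gene and its paralog kept the standard gene ahead per length. The ratio of paralog to gene in the 12 libraries reached at most 0.213 for Rpl22l1 to Rpl22, 0.184 for Rpl7l1 to Rpl7, 0.241 for Rps27l to Rps27 and 0.119 for Rps4l to Rps4x. Rpl36al came closest to its partner, with ratios of 0.759 to 0.844 in control TAC and 0.588 to 0.648 in BCAA-free TAC hearts, which do not overlap. In the diet comparison of TAC hearts Rpl36a rose, by 0.52, and Rpl36al was at 0.10 ± 0.07 (adjusted p = 0.489). Likewise Rpl22 (0.33 ± 0.07, adjusted p = 0.0338) and Rpl7 (0.30 ± 0.06, adjusted p = 0.0387) rose while Rpl22l1 was at -0.01 ± 0.11 and Rpl7l1 at -0.17 ± 0.07. Beside Rps27 (0.80), Rps27l was also higher, at 0.21 ± 0.08, but was not called (limma adjusted p = 0.168). Every BCAA-free TAC library lay above every control TAC library for Rps27l. Rpl39l and Rpl10l were not among the genes in all 4 tables. Reads of near-identical copies could be shared, so values of Rps27 with Rps27rt, Rpl37 with Rpl37rt and the Rps3a copies are uncertain. The 23 pseudogenes left out for '-ps' in the name summed to at most 0.128% of the members' scaled reads in any library.

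Lists of other genes of ribosome production and translation were counted in the diet comparison of TAC hearts, in which 1.27% of all genes rose and 2.11% fell; how a list differs from the members was not tested. In it 0 of 58 ribosome assembly genes (median -0.02, 6 at an unadjusted p under 0.05), 0 of 14 genes of RNA polymerase I, which makes ribosomal RNA (median 0.10, 3 under it), and 0 of 20 genes of mTORC1 and translation control (median -0.04, 3 under it) passed. Of other translation genes that carry TOP tracts 2 of 19 rose, namely Eef1b2, an exchange factor for elongation factor 1A (0.42, adjusted p = 0.0133), and Tpt1 (0.38, adjusted p = 0.0318), with a median of 0.11. Of 31 initiation factors 1 rose, Eif1, which helps select the start codon (0.44, adjusted p = 0.0241), and of 9 elongation and termination factors 0 (2 under an unadjusted 0.05). Mitochondrial ribosomal proteins, made from a separate gene family, had 2 of 78 higher, Mrpl52 (0.44, adjusted p = 0.0180) and Mrpl33 (0.40, adjusted p = 0.0170), and a median of 0.09. Each of these 5 calls was lost in 5 to 8 of 17 alternatives. For the list counts at an unadjusted p under 0.05, the share over all genes is not given here.

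With TAC over both diets, 5 of 58 assembly genes rose (8.62%), near the 9.67% of all genes. The smallest p among them were those of Rrp12, which takes part in export of ribosomal subunits (0.57, adjusted p = 0.00148), and Nhp2, a protein of the small nucleolar RNPs that modify ribosomal RNA (0.35, adjusted p = 0.00273). Of the polymerase I genes 2 of 14 rose and 2 fell, of the mitochondrial ribosomal proteins 3 of 78 rose and 1 fell, and of the elongation and termination factors 1 of 9 rose. Of the genes of mTORC1 and translation control 1 of 20 rose and 2 fell. Eif4ebp1, the translation repressor that mTORC1 inactivates, rose by 0.51 (adjusted p = 0.000128) and Eif4ebp2 fell by 0.30 (adjusted p = 0.00764). Of initiation factors 6 of 31 rose (19.4%) and 1 fell, and of other TOP-type genes 4 of 19 rose (21.1%), with Eif3h (0.23, adjusted p = 0.00185) and Pabpc1, the poly(A)-binding protein (0.35, adjusted p = 0.0121), first.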

How the data were processed

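Whole-heart RNA of 12 libraries, 3 per group, was compared. The genome build was GRCm38 (mm10), and the tools were DESeq2, Subread 1.5.2, STAR 2.5.2b and Trimmomatic 0.36, per the submitters' processing notes. Settings and strandedness were not stated. The authors deposited 4 tables, each with size-factor normalised reads per library (signal) beside log2 fold changes and p-values. Each column was divided by the value of 1 read, and 100% of values came out whole at a tolerance of 0.001 reads. These reads, scaled with 1 size factor per library over 15315 genes, gave the levels.

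Differences were tested with limma 3.58.1 in R 4.3.3, with an intensity trend on log2(value + 4), keeping genes whose mean was 10 or more, with Benjamini-Hochberg adjustment across every gene tested and a threshold of 0.05. Log2 differences of the deposited signal on that scale understate changes of low genes. The 4 pairwise comparisons used their own tables. They share groups of libraries, so their results are not independent of each other. The difference of TAC responses and the TAC average used both TAC tables. edgeR 4.0.16 and DESeq2 1.42.0 on the recovered reads, other scalings, filters and pseudocounts, a replicate block, and leaving out each library were alternatives. A lowess correction for transcript length (span 0.3) was added after seeing the data. The fits were tested on simulated data. Transcript lengths came from GENCODE M21, where 16475 of 16514 identifiers matched.

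The members and gene lists were chosen with earlier results of these data known. Named are members past the threshold (at most 12 per comparison by p), the 3 highest and 3 lowest per comparison with a mean of at least 50, members chosen by role, and up to 2 called genes per list. Genes behind small counts and the genes that passed without any single library were named after their values were seen. Some genes that this rule names, and 1 gene list, are not reported here.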

Additional observations from a re-analysis of the deposited data

How the results depend on the processing

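Counts are of members past the threshold. For counts under alternatives, the replicate block included, the share over all genes is not given in this section. For the diet in TAC hearts (33), the count was 20 with the length correction and 12 to 44 when each library was left out. The median of 0.28 was 0.20 with quantile normalization and 0.14 with the length correction. For TAC on the control diet (1), the count was 2 with quantile normalization, 3 with joint scaling, 11 with DESeq2 and 5 with the length correction. When each library was left out, it was 0 to 14. For TAC on the BCAA-free diet (4), it was 7 with joint scaling, 16 with DESeq2 and 0 to 12 when each library was left out. For the diet in sham hearts (0), it was 1 with DESeq2. For the difference of TAC responses (0), it was 1 with DESeq2, and the median of 0.21 was 0.089 with the length correction. For TAC averaged over diets (15), it was 8 to 15 when each library was left out. Except where the construction of an alternative (fewer libraries) shows it, the cause was not tested. Of 94 differences of genes called or named in a comparison, 8 changed direction under an alternative run, 0 of them among the 64 called. For the diet in TAC hearts, quantile normalization gave 0.0097 for Rpl22l1 and -0.040 for Rpl3l, and the length correction -0.017 for Rpl11, -0.060 for Rpl36al and -0.021 for Rpl3l. When each library was left out, values there ran from -0.091 to 0.078 for Rpl22l1, -0.093 to 0.051 for Rpl27, -0.095 to 0.022 for Rps2, -0.12 to 0.13 for Rpl3 and -0.13 to 0.19 for Rpl3l, and from -0.23 to 0.023 for Rpl3 in the difference of TAC responses.

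The labels do not say that replicate numbers pair the libraries. Correlations of same-numbered deviations ranged from -0.12 to 0.25, and 3 of 18 were over 0.1. In 0 of the 6 pairs of groups were all 3 over it, or did every library correlate best with its own number, so the numbers were not treated as pairs; some shared handling was not tested. With the replicate block 45 members passed for the diet in TAC hearts, 2 for TAC on the BCAA-free diet, 4 for the diet in sham hearts, 1 for TAC on the control diet, 15 for TAC averaged over diets and 0 for the difference.

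With 3 libraries a group, small differences were not detectable, and reads are not independent molecules.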
